A study of Mus musculus with 18 samples.

Results

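The genes described here were 10 members of the STAT and SOCS families: the transcription factor genes Stat3, Stat4, Stat5a, Stat5b and Stat6, and the feedback inhibitor genes Cish, Socs1, Socs2, Socs3 and Socs7. They were chosen by family and not by their values, 10 of 35865 genes listed under a single name in the RNA table, and all 10 passed the filter on low values. RNA was measured in YFP+ regulatory T cells (Tregs) that were sorted from CD4+ T cells of mouse spleen, in 2 Chd8-/- and 2 WT libraries. CHD8 is a chromatin remodeler of the chromodomain helicase family, and the comparison asks what changes in Tregs that lack it. The Chd8-/- mice were CHD8Flox/Flox with Foxp3YFP-Cre, in which the Foxp3 locus on the X chromosome drives Cre and the YFP reporter in Tregs. The labels give the WT mice as CHD8flox/flox with Foxp3YFP-Cre/+, whereas the study's methods describe WT mice without a floxed Chd8 allele. Poly IC injection is labelled for both genotypes, and no age is given in the labels.

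Cytokines such as IL-2, IL-6, IL-12 and IL-4 bind paired receptor chains, whose attached Janus kinases (JAKs) phosphorylate STAT proteins. The phosphorylated STATs pair, enter the nucleus and bind DNA, often at elements of the form TTCNNNGAA. Cish and several Socs genes are among their targets, and the encoded proteins bind receptors or JAKs through an SH2 domain and recruit a ubiquitin ligase through the SOCS box, which closes a negative feedback loop. In Tregs, IL-2 acting through STAT5 maintains Foxp3, while STAT3, STAT4 and STAT6 carry signals of the IL-6, IL-12 and IL-4 families.

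Promoter sequence was available for 8 of the 10 genes, in windows of 300 bases that ran from 250 bases before an annotated transcription start to base 50 of the transcript (RefSeq, GRCm38.p6). The motif TTCNNNGAA, which reads the same on both strands, was present in 2 of these 8 genes, Cish and Socs3. Of the 10439 genes tested for RNA that had a window, 8.67% held a match. Counted by window, 8.3% of all 32851 windows of that length did. The windows of both genes are shown because Cish and Socs3 were also the members with an unadjusted p under 0.05 for RNA below. Capitals mark each match, and the sequences run 5′ to 3′ on the strand of the gene, Cish at chr9:107296409-107296708 on the plus strand and Socs3 at chr11:117969317-117969616 on the minus strand.
Cish: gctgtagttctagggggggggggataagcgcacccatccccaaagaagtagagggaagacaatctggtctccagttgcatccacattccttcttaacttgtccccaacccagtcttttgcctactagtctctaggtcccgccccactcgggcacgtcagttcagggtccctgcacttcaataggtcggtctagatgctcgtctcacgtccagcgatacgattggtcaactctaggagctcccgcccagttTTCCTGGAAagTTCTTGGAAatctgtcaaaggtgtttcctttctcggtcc
Socs3: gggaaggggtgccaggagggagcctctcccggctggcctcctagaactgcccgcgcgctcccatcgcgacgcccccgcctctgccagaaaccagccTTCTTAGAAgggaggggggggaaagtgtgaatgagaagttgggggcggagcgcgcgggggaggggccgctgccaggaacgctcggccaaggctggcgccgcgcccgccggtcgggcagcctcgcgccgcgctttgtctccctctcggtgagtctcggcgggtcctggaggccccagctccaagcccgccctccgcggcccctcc
The Cish window held 2 matches, at bases 1 to 9 and 12 to 20 of the annotated transcript, and 150 of the 32851 windows (0.457%) held 2 or more. The Socs3 match lay at bases -154 to -146 before the start. No match was found in the windows of Socs1, Stat3, Stat4, Stat5a, Stat5b or Stat6, which says only that these letters were not in those windows. Among the 905 genes tested whose window held a match, the median log2 difference in RNA between Chd8-/- and WT was -0.18, compared with -0.15 for genes whose window held none.

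The RNA values were TPM, transcript abundances scaled for gene length and library size, and the libraries held about 15260073 and 11399858 (Chd8-/-) and 11181014 and 12332272 (WT) reads on genes, as estimated from the steps of the TPM values of short genes. Chd8 itself was at 14.9 and 11.4 TPM in the 2 Chd8-/- libraries and 24.7 and 27.6 TPM in the WT libraries (log2 difference -0.95, SE 0.29, limma adjusted p = 0.455), so that its RNA was lower in both Chd8-/- libraries and still present. The Treg genes Foxp3 (202.8 to 232.1 TPM) and Il2ra (860.5 to 1156.3 TPM) were high in all 4 libraries. Chd8-/- replicate 2 stood apart in RNA of other cells: its summed myeloid markers were at 1876.7 TPM as compared with 303.5 to 345.6 in the other 3 libraries, its erythroid markers at 1989.7 TPM as compared with 8.7 to 385.2, and its B cell markers at 139.2 TPM as compared with 28.9 to 45.7. Of these lists, 6 of 8 myeloid, 5 of 6 erythroid and 3 of 6 B cell markers were highest in that library. In Chd8-/- replicate 1 the myeloid markers Cd14, Adgre1 and Fcgr3 and 3 of the 4 globin genes were at 0. Cst3 went the other way and made up most of the replicate 1 myeloid sum (275.6 TPM, against 162.4 and 223 in WT). The other myeloid markers, such as Lyz2 (20 against 77.1 and 60.5 TPM), were lower in replicate 1 than in both WT libraries. The study describes a male and a female animal in each genotype. The Y-linked genes Ddx3y, Eif2s3y, Kdm5d and Uty were at 0 in all 4 libraries and Xist was at 500.2 to 843.3 TPM. Of 136 chromosome Y genes listed, 7 had a TPM above 0 in any library, the highest at 24.9 TPM. By Ddx3y, Eif2s3y, Kdm5d, Uty and Xist, no library looked male, although the study describes males. The part of these differences in the results below was not tested, and values without Chd8-/- replicate 2 are given for members and named genes that moved by over 1.5 times without it.

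**Figure D1:**
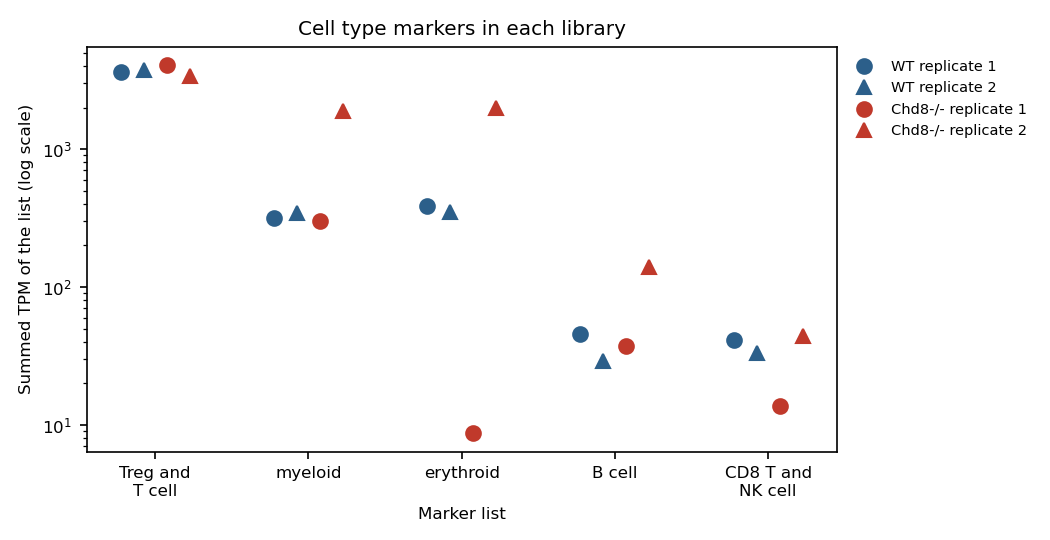
Summed TPM (log axis) of each cell type marker list in the 4 libraries, blue for WT and red for Chd8-/-, with circles for replicate 1 and triangles for replicate 2. Chd8-/- replicate 2 lies above the other libraries in the myeloid list (1876.7 TPM), the erythroid list (1989.7 TPM) and the B cell list (139.2 TPM), while the Treg and T cell list spans 3374.5 to 4043.9 TPM.

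Across the 10 members, the SOCS family genes Cish, Socs2 and Socs3 and the STAT gene Stat5a were higher in both Chd8-/- libraries than in both WT libraries, and Stat4 and Stat5b were lower in both. Socs1, Socs7, Stat3 and Stat6 overlapped between the genotypes. The 4 of 10 that were higher without overlap stand beside 14.8% of all 15240 genes tested, and the 2 of 10 that were lower beside 27.8%. None of the 10 passed an adjusted p of 0.05 in limma (0.446 to 0.993), nor did any of the 15240 genes, 0.00% called. At an unadjusted p under 0.05 stood 2 of the 10, Cish and Socs3, both higher in Chd8-/-, beside 3.90% of all genes in that direction and 10.2% in either. No member differed by a log2 value of 1 or more in either direction, as compared with 16.7% of all genes (5.12% higher and 11.6% lower). With 2 libraries against 2, an exact permutation test of a single gene cannot give a p below 0.333. The median log2 difference was 0.32 over the 10 members (0.19 without Chd8-/- replicate 2 and 0.20 without WT replicate 1), 0.61 over the 5 SOCS family genes and 0.07 over the 5 STAT genes. Over all genes tested it was -0.15, and setting that shift to 0 put the SOCS family median at 0.76 and the STAT median at 0.22.

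**Figure D2:**
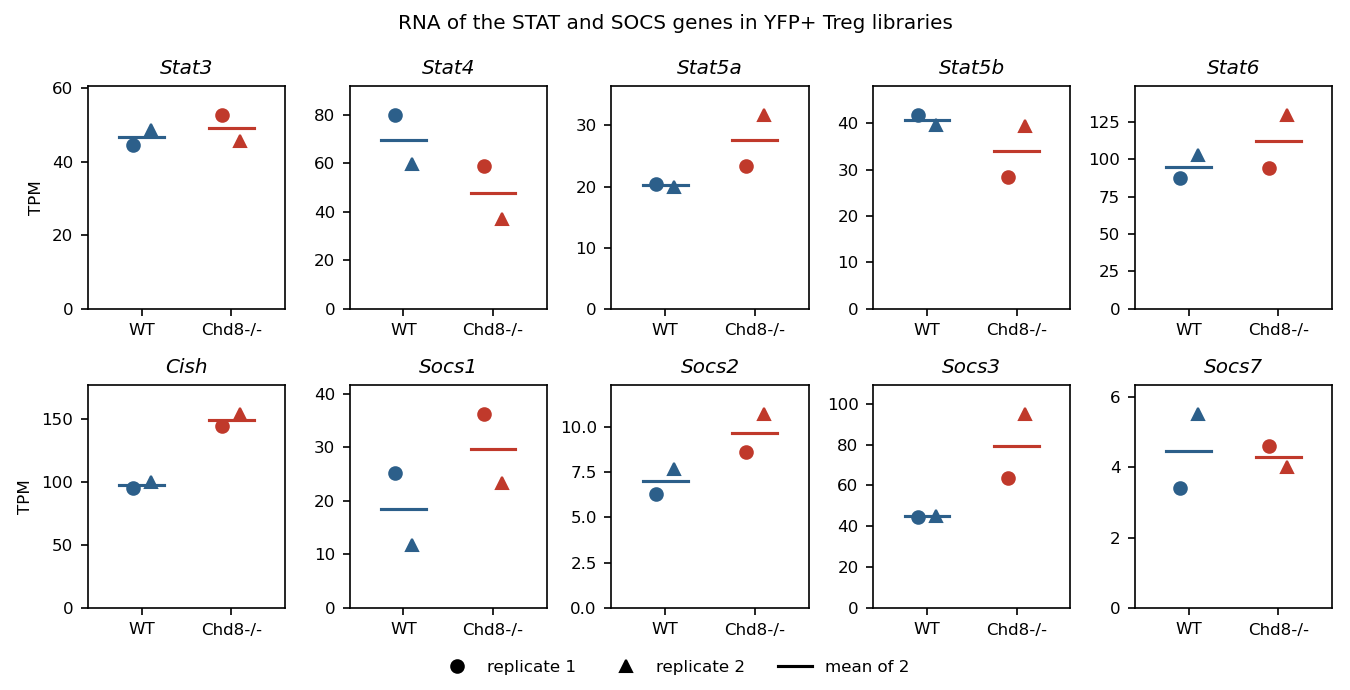
TPM of each of the 10 genes in WT (blue) and Chd8-/- (red) libraries, with circles for replicate 1, triangles for replicate 2 and a line for the mean of 2, each panel on its own axis from 0. Cish (144.8 and 153.7 against 95.5 and 100 TPM) and Socs3 (63.7 and 94.8 against 44.5 and 45.1 TPM) are separated between genotypes, whereas the points of Stat3, Stat6, Socs1 and Socs7 overlap.

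In WT Tregs the levels per length ran from Cish (mean 97.8 TPM) and Stat6 (94.9) through Stat4 (69.8), Stat3 (46.6), Socs3 (44.8) and Stat5b (40.8) to Stat5a (20.2), Socs1 (18.6), Socs2 (7) and Socs7 (4.45). In this order Cish and Stat6, Stat3 and Socs3, and Stat5a and Socs1 overlapped with each other in the WT libraries, and the other neighbours did not. The order rests on the gene lengths that went into TPM, and the labels and the study's methods name both a 3′ assay and a standard RNA-seq kit, so levels of different genes are less certain than the levels of 1 gene across libraries.

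Among the feedback inhibitors, Cish, the SOCS family gene that is induced by STAT5 and restrains IL-2 and T cell receptor signaling, had the steadiest difference. It was at 144.8 and 153.7 TPM in the Chd8-/- libraries and at 95.5 and 100 TPM in the WT libraries. The libraries of a genotype lay close together, within 1.06-fold in Chd8-/- and 1.05-fold in WT, and the genotypes were well apart. The mean was 1.53-fold higher in Chd8-/- (149.3 ± 6.29 against 97.8 ± 3.18 TPM, SD, n = 2 each). On the log2(TPM + 1) scale the difference was 0.61 (SE 0.17, 95% confidence interval 0.13 to 1.08), with an unadjusted limma p of 0.0226 and an adjusted p of 0.446. It stayed between 0.56 and 0.65 when any 1 library was left out, so that Chd8-/- replicate 2 did not carry it. Cish was also the member with the most reads, about 1998 to 4195 in a library.

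Socs3, which inhibits JAKs bound to the IL-6 receptor chain gp130 and other receptors, had the largest difference with all 4 libraries, while Socs1 was ahead of it under quantile normalization (0.87 against 0.83) and without WT replicate 1 or Chd8-/- replicate 2. It was at 63.7 and 94.8 TPM in the Chd8-/- libraries, as compared with 44.5 and 45.1 TPM in the WT libraries. Neither overlapped with WT, where the libraries were within 1.01-fold of each other, but the Chd8-/- libraries themselves differed by 1.49-fold. The mean was 1.77-fold higher in Chd8-/- (79.3 ± 22 against 44.8 ± 0.424 TPM, SD, n = 2 each). The log2 difference was 0.78 (SE 0.27, 95% confidence interval 0.04 to 1.52), with an unadjusted limma p of 0.042 and an adjusted p of 0.478. The higher value came from the library with more myeloid, erythroid and B cell RNA. The log2 difference fell from 0.78 to 0.50 without that library, with replicate 1 above both WT libraries, and was 1.06 without Chd8-/- replicate 1. Replicate 1 also differed from WT in other cells' RNA, with summed erythroid markers at 8.7 TPM as compared with 385.2 and 351.9 TPM. The part of such RNA in the Socs3 values was not tested. Fewer cells of a type and less RNA per cell cannot be told apart in these bulk libraries.

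Socs1, an inhibitor of JAK kinases that limits interferon and IL-2 family signals, was at 36.2 and 23.3 TPM in the Chd8-/- libraries and at 25.3 and 11.8 TPM in WT. The genotypes overlapped, since Chd8-/- replicate 2 lay below WT replicate 1. The log2 difference was 0.71 with a wide interval (SE 0.48, 95% confidence interval -0.57 to 2.00, adjusted p = 0.658), and the WT libraries alone differed by 2.14-fold. Leaving out single libraries moved it from 0.19 (without WT replicate 2) to 1.23 (without WT replicate 1). Reads were few, about 82 to 327 in a library. The interval spans both no difference and one larger than that of Cish or Socs3.

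Socs2, best known as a brake on growth hormone signaling and itself a STAT5 target, was low, at 8.6 and 10.7 TPM in the Chd8-/- libraries and at 6.3 and 7.7 TPM in WT. The genotypes did not overlap, but the gap between 7.7 and 8.6 TPM was smaller than the spread within either genotype. The log2 difference was 0.41 (SE 0.35, adjusted p = 0.717) and lay between 0.27 and 0.55 without any 1 library.

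Socs7, a more distant family member, was the lowest of the 10 at 4.6 and 4 TPM in Chd8-/- and 3.4 and 5.5 TPM in WT. The Chd8-/- values lay inside the WT range. Its log2 difference was -0.02 (SE 0.41, 95% confidence interval -1.13 to 1.10, adjusted p = 0.993), and it turned positive with all genes centred on 0 (0.13), so no direction can be given.

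**Figure D3:**
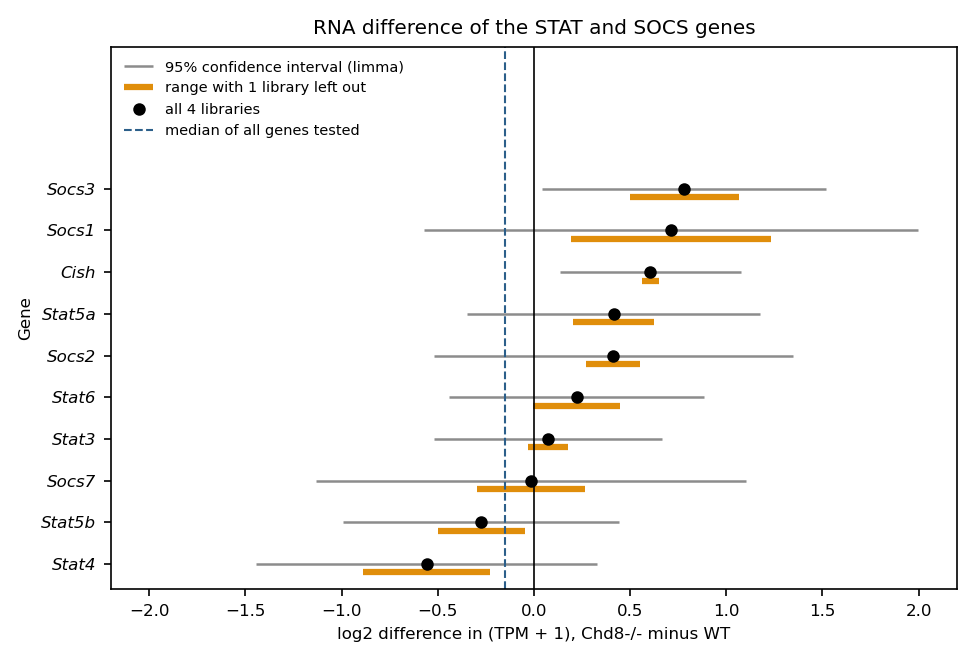
Log2 difference in (TPM + 1), Chd8-/- minus WT, of the 10 genes in order of size. Points use all 4 libraries, grey lines are limma 95% confidence intervals, orange bars span the values with 1 library left out, and the dashed line is the median of all genes tested (-0.15). The intervals of Cish (0.13 to 1.08) and Socs3 (0.04 to 1.52) lie above 0, before adjustment for 15240 genes, and the orange bar of Cish is short (0.56 to 0.65) beside that of Socs1 (0.19 to 1.23).

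Among the STAT genes, the closely related pair Stat5a and Stat5b, whose proteins carry IL-2 signals, went in opposite directions. Stat5a was at 23.4 and 31.7 TPM in the Chd8-/- libraries and at 20.4 and 20 TPM in WT. Both Chd8-/- values were above WT, with a log2 difference of 0.41 (SE 0.28, 95% confidence interval -0.35 to 1.17, adjusted p = 0.661), which was 0.20 without Chd8-/- replicate 2 and 0.63 without Chd8-/- replicate 1. Stat5b was at 28.5 and 39.4 TPM in the Chd8-/- libraries and at 41.8 and 39.7 TPM in WT. Here Chd8-/- replicate 2 was almost level with WT replicate 2, and the log2 difference was -0.27 (SE 0.27, 95% confidence interval -0.99 to 0.44, adjusted p = 0.755), which was -0.50 without Chd8-/- replicate 2 and -0.05 without Chd8-/- replicate 1. Neither gene passed the test alone.

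Within each library, however, the balance between the pair was steady. Stat5a made up 45.1% and 44.6% of the summed Stat5a and Stat5b TPM in the Chd8-/- libraries, as compared with 32.8% and 33.5% in the WT libraries. The means were 44.8 ± 0.355% and 33.1 ± 0.497% (SD, n = 2 each), a difference of 11.7 percentage points, and leaving out any 1 library kept it between 11.3 and 12 points. The share compares 2 genes in the same library, and it barely moved between the Chd8-/- libraries although their summed TPM went from 51.9 to 71.1. In WT the sums were 62.2 and 59.7 TPM, between the Chd8-/- values. The share was looked at after the values of both genes had been seen. An exact permutation test of it gave p = 0.333. That is the smallest p that 2 libraries against 2 can give, so the test cannot decide whether the share differs. The genes lie back to back on chromosome 11 with 346 bases between them, Stat5b on the minus strand (chr11:100780731-100859004) and Stat5a on the plus strand (chr11:100859351-100885169), and Stat3 follows 1636 bases after Stat5a (GRCm38). Because the genes are close paralogs, reads shared between them could have been dropped or split by the authors' counting, and the share is uncertain to that extent.

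**Figure D4:**
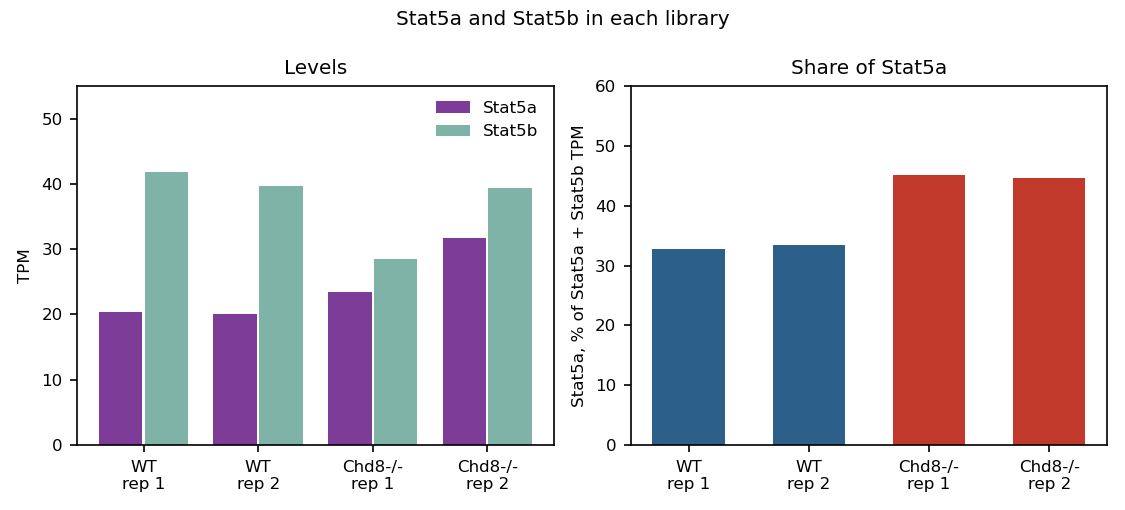
Left, TPM of Stat5a (purple) and Stat5b (green) in each library. Right, Stat5a as a percentage of the summed TPM of both genes, blue for WT and red for Chd8-/-: 32.8% and 33.5% in the WT libraries and 45.1% and 44.6% in the Chd8-/- libraries, although the levels on the left differ between the Chd8-/- libraries.

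Stat4, which carries IL-12 signals and drives type 1 helper responses, was the member with the largest difference towards lower values. It was at 58.8 and 36.9 TPM in the Chd8-/- libraries and at 80 and 59.6 TPM in WT. The genotypes were separated only by the gap between 58.8 and 59.6 TPM, which is small beside the spread of 1.59-fold within Chd8-/- and 1.34-fold within WT. The log2 difference was -0.56 (SE 0.33, 95% confidence interval -1.45 to 0.33, adjusted p = 0.625). It ranged from -0.89 (without Chd8-/- replicate 1) to -0.23 (without Chd8-/- replicate 2), so the library rich in other cells' RNA was also the one lowest in Stat4.

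Stat6, the transcription factor of IL-4 and IL-13 signals, was at 94.3 and 129.5 TPM in the Chd8-/- libraries and at 87.3 and 102.5 TPM in WT. The genotypes overlapped, and the log2 difference of 0.22 (SE 0.25, adjusted p = 0.785) was -0.0045 without Chd8-/- replicate 2. Stat3, which carries IL-6 family, IL-10, IL-21 and IL-23 signals, was at 52.7 and 45.6 TPM in the Chd8-/- libraries and at 44.5 and 48.7 TPM in WT. It had the value nearest to 0 among the STAT genes, with a log2 difference of 0.07 (95% confidence interval -0.52 to 0.67, adjusted p = 0.927). The interval bounds a change in Stat3 RNA at about the size seen for Cish in either direction.

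By the rule of the nearest centred log2 profile over the 4 libraries, the 3 genes most like Socs3 among 11300 with a mean of at least 5 TPM were Pfdn6, a prefoldin subunit gene (56.9 and 79 TPM in Chd8-/-, 37.7 and 41.5 in WT), Uchl5, a proteasome-bound deubiquitinase gene (25.7 and 39.7 against 16.5 and 16.8), and the predicted gene Gm40385 (27.6 and 44.8 against 18.2 and 19.2). Their Euclidean distances were 0.114, 0.123 and 0.131 in log2 units. With 4 libraries, such closeness is a description of shape only.

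The remaining genes of the pathway were examined by list, 80 genes tested in all beside the members, and none passed an adjusted p of 0.05. Over all genes tested, 14.8% were higher and 27.8% lower without overlap, shares that stand beside every list below. Among the other genes of the SOCS family, Socs5 was higher without overlap (15.7 and 13.7 TPM in Chd8-/-, 9.2 and 12.2 in WT), and Socs4 was lower (92.3 and 60.1 against 115.3 and 98.9, a log2 difference of -0.51 that was -0.21 without Chd8-/- replicate 2). The median log2 difference of the list of other STAT and SOCS genes was -0.04, compared with 0.32 for the 10 members and -0.15 for all genes. The order of the lists turned without Chd8-/- replicate 2 (0.34 and 0.19), and the list of other genes was at 0.20 under quantile normalization.

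Of the 4 JAK genes, Jak3, whose product serves the IL-2 receptor, was the only one higher without overlap, at 89.4 and 97.9 TPM in Chd8-/- and 70.7 and 61.7 TPM in WT (log2 difference 0.50, SE 0.20, adjusted p = 0.511). Jak1, Jak2 and Tyk2 were lower without overlap, by -0.34, -0.12 and -0.45 on the log2 scale, of which the Jak2 value turned positive once all genes were centred on 0. The 1 higher and 3 lower of 4 stand beside 14.8% and 27.8% of all genes. The Jak1 value was -0.08 without Chd8-/- replicate 2.

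Receptor chains spanned log2 differences from -0.99 to 1.64. Of 20 tested, 5 were higher and 9 lower without overlap, beside 14.8% and 27.8% of all genes. Il7r, the IL-7 receptor chain that signals through STAT5, was at 504.5 and 366.8 TPM in the Chd8-/- libraries and at 149.7 and 126.7 TPM in WT, a log2 difference of 1.64 (SE 0.23, adjusted p = 0.373). Both chains of the IL-6 receptor, which feeds STAT3 and is restrained by Socs3, were lower: Il6ra was at 75.6 and 72.8 against 162.2 and 136.2 TPM (-0.99, SE 0.20) and Il6st at 167.8 and 158.5 against 265.2 and 325.9 TPM (-0.85, SE 0.19). Ifnar1, an interferon receptor chain, was at 68.1 and 41.1 against 91.7 and 117.6 TPM (-0.96). Il12rb1, which pairs for IL-12 and IL-23, was higher (11 and 22.9 against 8.8 and 6.9 TPM, 0.94), as was Il15ra (4.7 and 8 against 3.3 and 4.4 TPM, 0.57). Without Chd8-/- replicate 2, the differences were 0.45 for Il12rb1, 0.24 for Il15ra and -0.60 for Ifnar1. The adjusted p of these receptor chains were between 0.373 and 0.69.

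Ligand RNA was mostly near 0, and 5 of 17 ligand genes passed the filter. Il4 was at 7.6 and 1.9 TPM in the Chd8-/- libraries and at 0 and 0.3 TPM in WT (limma adjusted p = 0.462). It passed the filter only through the Chd8-/- libraries, so that its genotypes could not overlap. Il13 did not pass the filter, being at 37 TPM in Chd8-/- replicate 2 and at 0 to 0.4 TPM in the other libraries. Il5, which did not pass it either, was at 11.6 TPM in WT replicate 1 and at 0 to 0.1 TPM elsewhere. Osm (-2.27) and Il10 (-1.29) had lower means in Chd8-/- with overlapping genotypes.

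Of the 11 other negative regulators tested, phosphatases and PIAS proteins among them, 1 was higher without overlap (Ptpn11, 0.10). Lower without overlap were 3 (Pias2, -0.33, Ptpn2, -0.32, and Cblb, -0.30). These counts stand beside 14.8% and 27.8% of all genes. Without Chd8-/- replicate 2, Ptpn11 was at 0.06 and Ptpn2 at -0.07. Among the SOCS box ligase partners, Tceb2, which encodes elongin B, the adaptor of the SOCS box, was higher without overlap (583 and 744.3 against 523.4 and 379 TPM, 0.56, adjusted p = 0.536), and the other 5 genes overlapped. That 1 of 6 stands beside 14.8% of all genes.

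Genes known as targets of the STATs differed in both directions. Higher without overlap were 3 of 15 STAT5, 3 of 11 STAT3, 0 of 6 STAT4 and 3 of 5 STAT6 targets, beside 14.8% of all genes. The 3 STAT6 targets include Il4, which passed the filter only through its Chd8-/- values. Its lack of overlap was therefore fixed by the filter and does not count towards a difference. Those lower without overlap numbered 2, 2, 1 and 1 in the same order, beside 27.8%. The median log2 difference was -0.01 over 15 STAT5 targets, 0.01 over 11 STAT3 targets, -0.15 over 6 STAT4 targets and 0.27 over 5 STAT6 targets. Single libraries moved these medians. That of the STAT3 targets was 0.51 without Chd8-/- replicate 1 and -0.38 without Chd8-/- replicate 2, and that of the STAT6 targets 0.54 without Chd8-/- replicate 1 and 0.43 without WT replicate 1. Of the STAT5 targets, Prdm1 (1.13), Tnfrsf4 (0.82) and Pim1 (0.54) were higher without overlap and Gzmb (-2.16) and Bcl2l1 (-0.53) lower, while Foxp3 (0.06) and Il2ra (0.14) overlapped. Of the STAT3 targets, Batf, a partner of JUN proteins in T cell differentiation, was at 502.4 and 784.6 TPM in Chd8-/- as compared with 231.1 and 207.1 TPM in WT (1.52, SE 0.27, adjusted p = 0.402). Ahr (1.08) and Bcl3 (0.73) were also higher, and Maf (-0.40) was among those lower. The single STAT4 target without overlap was Tbx21, the type 1 helper factor T-bet, at 2.7 and 1.9 against 12.9 and 5 TPM (-1.48, adjusted p = 0.493). The STAT6 targets Ccr8 (1.33) and Gata3 (0.26), beside Il4, were higher and Ccr4 (-0.86) lower. Without Chd8-/- replicate 2, Gzmb was at -1.35, Maf at -0.20 and Ccr4 at -0.50.

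**Figure D5:**
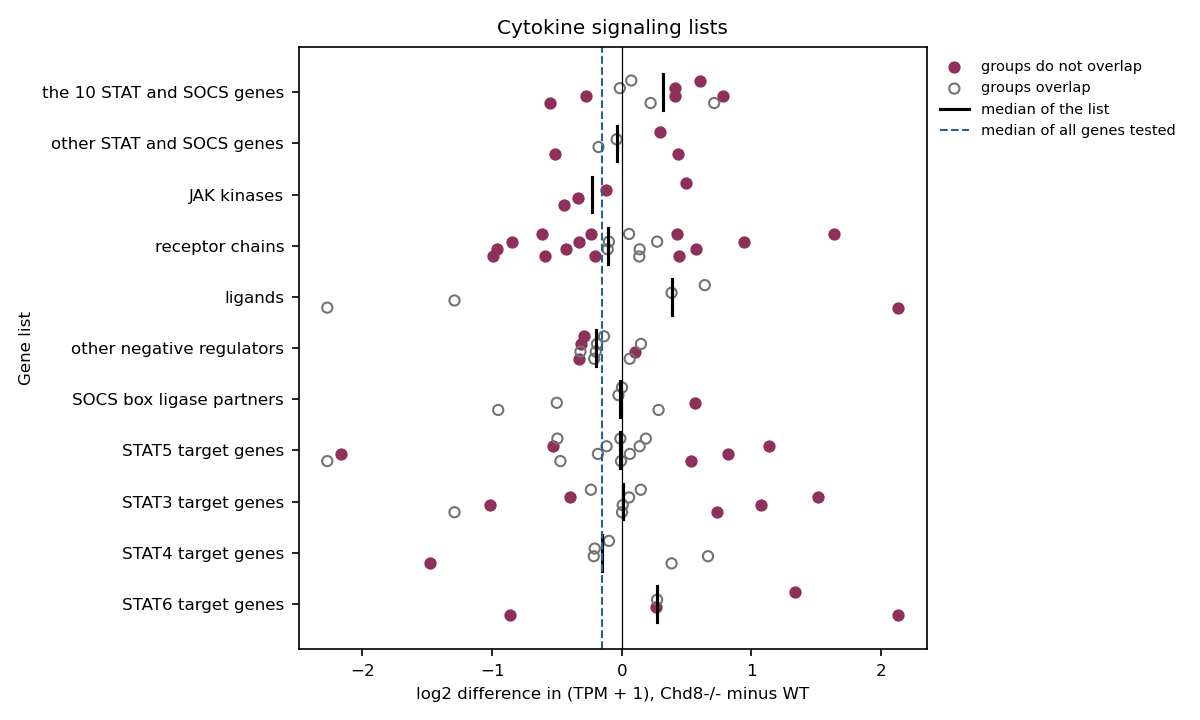
Log2 difference in (TPM + 1), Chd8-/- minus WT, of each gene tested in the 11 lists. Filled points are genes whose genotypes did not overlap, open points those that did, short black lines list medians, and the dashed line the median of all genes tested (-0.15). The 10 STAT and SOCS genes span -0.56 to 0.78, while receptor chains reach from -0.99 to 1.64.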

How the data were processed

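RNA was measured in 2 Chd8-/- and 2 WT libraries, grouped by their labels. The 10 genes and the lists were chosen with earlier results of these data known. Per the labels and the study's methods, the authors trimmed reads with Trim Galore 0.4.2 and cutadapt 1.9.1, aligned them to mm10 with STAR 2.6.1e, removed duplicates, counted RefSeq genes with featureCounts 1.6.2 and deposited TPM, in steps of 0.1. Strand setting and treatment of reads shared by several genes were not given in the sources used here. TPM carry no counts, so the reads behind a value were approximated from the step of 1 read in genes of 50 to 120 exon bases (98.1 to 99.5% of values whole within 0.1 read) and RefSeq GRCm38 lengths, which may differ from the authors'. Of 35869 entries, 4 under repeated names were left out.

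Genes with at least 1 TPM in at least 2 libraries (15240) were tested by moderated linear models (limma 3.58.1 under R 4.3.3, eBayes with a variance trend, 2-sided, Benjamini-Hochberg over all genes) on log2(TPM + 1), which understates differences of low genes. The step was tested on simulated data first. The p-values rest on the spread between the 2 libraries of each genotype and, through eBayes, on that of other genes of similar level (4.338 degrees of freedom in total). For a gene with close libraries, such as Cish, the SE is therefore not the spread of its own libraries alone. The labels do not state the independence of the libraries beyond their being separate samples. Genes named were all 10 members, of each other list up to 3 per direction by size among those without overlap, and the 3 nearest to Socs3. Some genes that this rule names are not reported here, although list counts and medians include them. Other genes (Foxp3, Il2ra, Il13, markers) were named to describe the libraries or lists. Promoter sequences came from RefSeq (GRCm38.p6). The same replicate numbers were not treated as pairs in the main fit. Over genes, the replicate 1 minus replicate 2 differences of the genotypes correlated at -0.012. With only 2 pairs, and replicate 2 of Chd8-/- richer in other cells' RNA, this cannot decide whether the numbers pair libraries. The ATAC-seq and CHD8 ChIP-seq tables are on mm39 and were not used here, so planned comparisons of peaks at these genes were not run. Python 3.11.15 and matplotlib 3.10.9 drew the figures.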

Additional observations from a re-analysis of the deposited data

How the results depend on the processing

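Alternatives were a pseudocount of 0.1 or 5 TPM, no filter or a mean of at least 5 TPM, quantile normalization, centring all genes on 0, no variance trend, a replicate block and leaving out each library. Under all of these, 0 of 10 members and 0 of 80 other pathway genes passed an adjusted p of 0.05 (lowest for a member 0.204), and 113 of 119 member values kept their direction. Those that turned were Socs7 under quantile normalization (0.26), centring (0.13) and without WT replicate 2 (0.27) or Chd8-/- replicate 2 (0.07), Stat3 without Chd8-/- replicate 1 (-0.0292) and Stat6 without Chd8-/- replicate 2 (-0.0045). With 1 library left out, the range was -0.30 to 0.27 for Socs7, -0.0292 to 0.18 for Stat3 and -0.0045 to 0.45 for Stat6. Socs7 gave no value with a mean of at least 5 TPM. With 1 library left out, 0 to 1 members were higher by a log2 value of 1 or more (0 with all libraries): Socs1 without WT replicate 1 (1.23) or Chd8-/- replicate 2 (1.02), and Socs3 without Chd8-/- replicate 1 (1.06). Of all 15240 genes, 781 were higher by that much with all libraries and 989 to 1371 with 1 left out. Members higher without overlap numbered 5 to 7 (4 with all), with 7 without WT replicate 2, while the share of all genes went from 14.8% to between 22.0% and 32.5%. Under quantile normalization, members higher without overlap rose from 4 to 6, and those lower fell from 2 to 1. All genes tested moved the same way in this setting, from 2261 to 3196 higher and from 4233 to 3242 lower. Without WT replicate 1, members lower without overlap numbered 3, beside 43.2% of all genes. They stayed at 2 without any other single library. Among the 80 genes of the other lists, 6 were higher and 5 lower by 1 or more, beside 5.12% and 11.6% of all genes. With a pseudocount of 5 TPM these counts were 3 and 2. Those of all 15240 genes fell from 781 and 1768 to 362 and 690. With 1 library left out, the lower count of the lists ranged from 3 to 10, 10 without Chd8-/- replicate 1 and 3 without Chd8-/- replicate 2. The lower count of all genes moved the same way, from 1768 to 3104 and 1445 in these 2 settings. Genes of these lists higher without overlap went from 19 to between 22 and 33, with 30 without WT replicate 2 and 33 without Chd8-/- replicate 2, where 26.5% and 32.5% of all genes did so. Those lower went from 22 to between 28 and 40, with 34 without WT replicate 1 and 40 without Chd8-/- replicate 1, beside 43.2% and 52.7% of all genes. A setting that leaves a genotype with 1 library assumes that it varies like the other genotype. With the replicate block, the member differences were unchanged (Cish 0.61, Socs3 0.78) and 0 of 10 passed. With 2 libraries per genotype and about 82 to 4195 reads behind a member's value, the SEs of the 10 members ran from 0.17 to 0.48 on the log2 scale.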
